A study of Homo sapiens with 12 samples.

Results

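Depletion of IGF2BP1 in the ovarian cancer line ES-2 was compared with control siRNA treatment in total RNA. The samples were chosen by their titles and siRNA labels: 3 libraries from cells given control siRNAs (siC) and 3 from cells given siRNAs against IGF2BP1 (siI1), 6 of the 12 libraries of the series. The other 6 libraries came from cells given siRNAs against the paralogs IGF2BP2 (siI2, 3 libraries) and IGF2BP3 (siI3, 3 libraries). They entered the estimate of the spread and one comparison at the end. All groups shared the same unmodified line, an established line from an ovarian tumour, grown in DMEM with serum. The labels name neither the siRNA sequences nor the dose or the hours of treatment. Nor do they state that the replicates were independent cultures, and p-values measure no more than the spread between these samples.

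IGF2BP1 is a cytoplasmic RNA-binding protein with RRM and KH domains that is abundant in the embryo, scarce in most adult tissues and made again in many carcinomas. It packs target mRNAs into ribonucleoprotein granules and is known to slow their decay, to govern their transport and translation, and to shield some of them from microRNAs loaded on Argonaute. Its best known targets include ACTB, MYC and IGF2, and the title of the series places the protein between miRNAs and oncogenic mRNAs. The comparison therefore asked which transcripts changed when the protein was depleted.

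The siRNA against IGF2BP1 lowered its target. IGF2BP1 (ENSG00000159217) stood at 41.9, 49.1 and 40.7 FPM (fragments scaled to library depth, the deposited unit) in siC replicates 1 to 3 and at 10.7, 11.7 and 10.8 FPM in siI1 replicates 1 to 3. All siI1 values lay below all siC values, and the mean fell from 43.9 ± 4.52 to 11.1 ± 0.539 FPM (SD, n = 3), 25.2% of siC. The log2 fold change of FPM + 1 was -1.89 (SE 0.18, limma adjusted p = 1.19e-05). The paralogs did not pass. IGF2BP2 was at 74.8, 81.4 and 83.9 FPM in siC and at 86.0, 97.1 and 84.1 FPM in siI1 (0.15, limma adjusted p = 0.684). Its 3 siI1 values lay above its 3 siC values, by a narrow margin. IGF2BP3 was at 21.7, 19.5 and 29.4 FPM in siC and 14.9, 17.4 and 13.3 FPM in siI1 (-0.58, limma adjusted p = 0.19). The 3 siI1 values of IGF2BP3 lay below the 3 siC values, but the log2 difference was -0.07 once GC content and length were corrected for.

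**Figure D1:**
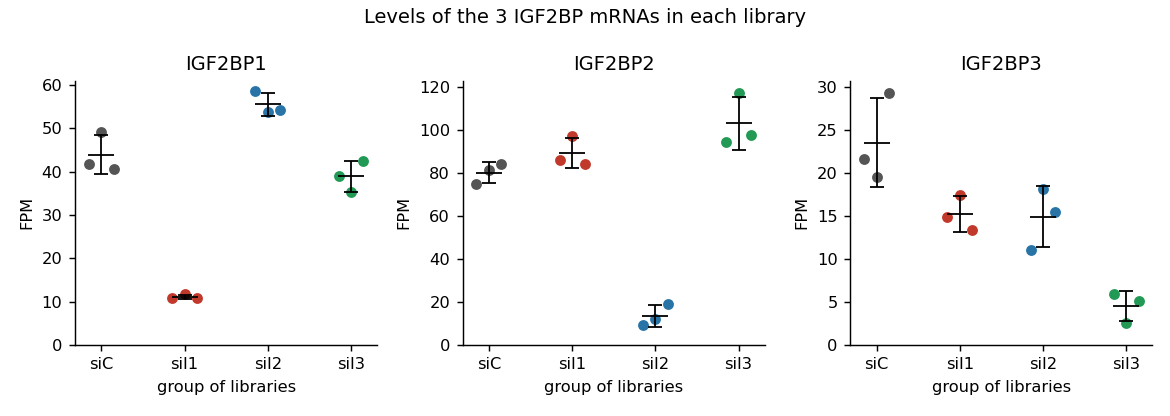
Level of IGF2BP1, IGF2BP2 and IGF2BP3 mRNA in FPM (vertical axis, linear, from 0) in each of the 12 libraries by group; points are libraries, the wide bar is the mean and the whiskers are 1 SD (n = 3). IGF2BP1 was at 10.7 to 11.7 FPM in the siI1 libraries and at 40.7 to 49.1 FPM in siC.

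The 6 libraries held 5988040 to 11304060 reads, so that 3 reads corresponded to 0.324 to 0.513 FPM, and 13782 genes passed the filter on low counts. No pair of replicates was as close as resequencing of 1 library would be (chi-square per degree of freedom 11.6 to 82.5). Epithelial EPCAM, CDH1 and ESRP1 had at most 3 reads in each of the 6 libraries, whereas mesenchymal VIM, AXL and CDH2 and the keratins KRT7, KRT8 and KRT18 were well covered. PAX8 and WT1, transcription factors used to mark Müllerian and clear cell ovarian carcinoma, had at most 6 reads in any of the 6, while MECOM, of the same marker class, was expressed (35.2 FPM in siC and 20.9 FPM in siI1 on average, limma adjusted p = 0.127). Of 6 leukocyte markers, 5 had at most 3 reads everywhere and CD14 reached 10, and their summed level was 0.348 to 0.812 FPM in siC and 1.12 to 1.71 FPM in siI1. Of 4 endothelial markers, CDH5 and TIE1 were expressed while VWF and CLDN5 had at most 6 and 5 reads. Summed muscle markers stayed at or under 1.71 FPM and neural ones at or under 6.15 FPM.

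The control libraries were not alike. The slope of a library's deviation on transcript GC content, in log2 per 10 points of GC, was -0.46 in siC replicate 1 and -0.43 in siC replicate 3, but 0.02 in siC replicate 2. In siI1 it was 0.21, 0.01 and 0.12. In composition siC replicate 2 stood apart. Genes of the small nuclear RNA U1 held 19.8% of its gene reads, beside 8.52% and 14.2% in siC replicates 1 and 3. In siI1 they held 2.87% to 12.6%. Protein-coding genes held 46.9% in siC replicate 2, and 53.6% to 56.6% in the other siC and siI1 libraries. The slope of the controls moved with the outcome: when genes were put into 4 equal bins by GC content, 343 were called down and 11 up in the lowest bin, and 292 up and 24 down in the highest. The median log2 fold change of the 4 bins ran from -0.53 through -0.26 and 0.12 to 0.32. After a correction of each library for GC content and length the 4 medians were -0.02, -0.01, 0.03 and -0.01. Values near 0 follow from the method, since it subtracts each library's own trend on GC content and length. A knockdown effect that followed GC content would be removed as well. The part of the GC slope in single gene changes was not tested beyond this correction.

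**Figure D2:**
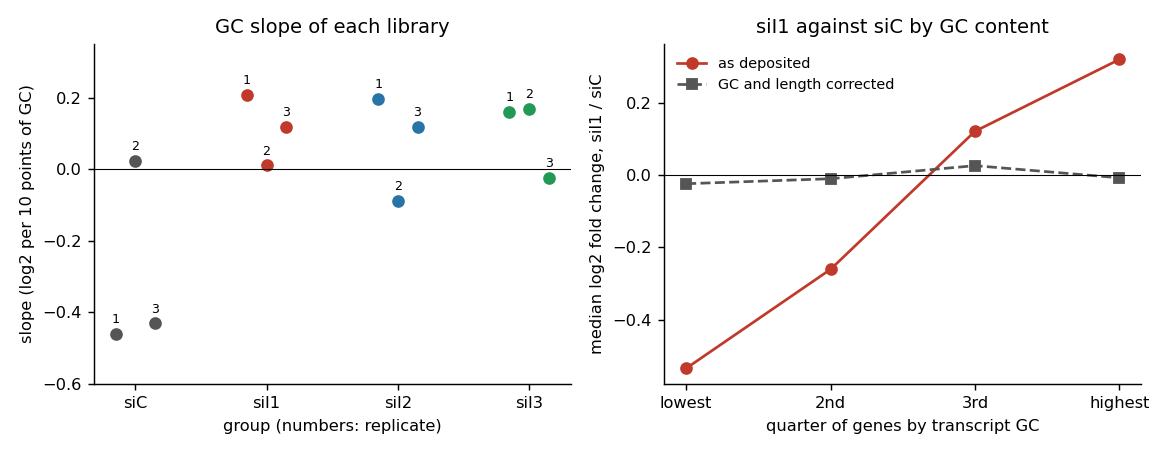
Left, slope of each library's deviation from the gene mean on transcript GC content (log2 per 10 points of GC) for the 12 libraries by group, numbered by replicate. Right, median log2 fold change of siI1 against siC in 4 equal groups of genes by GC content, as deposited (circles) and after correction for GC content and length (squares). The squares lie near 0 by construction, since the correction subtracts each library's own trend. Slopes were -0.46 and -0.43 in siC replicates 1 and 3, and the uncorrected medians ran from -0.53 to 0.32.

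For siI1 against siC, 1128 of 13782 genes passed in limma an adjusted p of 0.05 (8.18%), 519 up (3.77%) and 609 down (4.42%), with a median log2 fold change of -0.05 over all genes. With RLE factors the split was 710 up of 1252, and with upper-quartile factors 732 up of 1264. The count rested on single libraries. Dropping siC replicate 1 left 268 calls, dropping siC replicate 3 left 290, and dropping siC replicate 2 gave 2602. Dropping siI1 replicate 1 left 299, and dropping siI1 replicate 3 left 332. After the correction 894 of 13570 genes passed (6.59%), 482 up (3.55%) and 412 down (3.04%), of which 597 were also among the first 1128. With siC replicate 2 as the only control, 40 genes passed, or 95 after the correction. A gene is therefore called stable below where it passed, in 1 direction, as deposited, after the correction and in all 6 fits made without one of the siC or siI1 libraries. There were 222 stable genes (1.61% of those tested), 136 up (0.987%) and 86 down (0.624%). In edgeR on recovered reads 1388 genes passed (10.1%), 668 up (4.85%) and 720 down (5.22%), among them all 222. Values of siC and siI1 did not overlap in 4517 genes (32.8%), siI1 being higher in 15.2% and lower in 17.6% of the genes tested. At an unadjusted p of 0.05 in limma 27.6% passed. Scaling to the spike-in totals moved the median of all genes from -0.05 to 0.43, so list medians below are relative to the library totals. Counts of called and stable list members below are to be read beside 8.18% and 1.61% of all genes.

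Some collagen chain genes rose and most did not pass the test. Collagens are triple-helical proteins that form fibrils or basement membrane sheets, and type I collagen is the main fibril of connective tissue. Of 17 measured chains, 5 were called up and 0 down (29.4% called), and 4 were stably up, with a median log2 fold change of 0.43 beside -0.05 for all genes. COL1A1, the alpha 1 chain of type I, was at 74.6, 105 and 101 FPM in siC and at 798, 692 and 761 FPM in siI1, the groups standing far apart (3.00, SE 0.26, limma adjusted p = 6.2e-06). COL1A2, which supplies the alpha 2 chain, was at 1.74 FPM on average in siC and 2.59 FPM in siI1 and did not pass (0.40, limma adjusted p = 0.681). The fibril-regulating type V chain COL5A1 went from 73.9, 92.5 and 74.7 to 310.1, 278 and 302 FPM (1.88, SE 0.19, limma adjusted p = 3.35e-05). The 2 basement membrane chains of type IV rose together: COL4A1 from 27.3 ± 0.634 to 73.5 ± 14.9 FPM (1.38) and COL4A2 from 111 ± 25.4 to 284 ± 30.2 FPM (1.37; SD, n = 3). COL18A1, a basement membrane collagen, was called (26.6 and 52.6 FPM on average) but not after the correction (limma adjusted p = 0.18). The chains COL6A1, COL6A2, COL6A3 and COL12A1 were well covered and lay between -0.12 and 0.43 without passing, although COL6A2 was lower after the correction (-0.55, limma adjusted p = 0.0283).

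Some of the enzymes that process collagen rose as well. Of 24 measured, 10 were called up and 0 down (41.7% called), 14 did not pass, and 7 were stably up. Dropping siC replicate 1 left 7 calls, and the median was 0.50 before and 0.51 after the correction. P3H2, a prolyl 3-hydroxylase that acts on basement membrane collagen, was at 7.19, 4.42 and 7.04 FPM in siC and 30.9, 42.1 and 22.2 FPM in siI1 (2.16, SE 0.26, limma adjusted p = 0.000166). LOXL1, a lysyl oxidase that starts collagen and elastin crosslinks, was at 41.7, 52.5 and 34.7 FPM in siC and 166, 138 and 175 FPM in siI1 (1.89, SE 0.23, limma adjusted p = 0.000171). BMP1, which cuts the C-propeptide from procollagen, was nearly constant within siI1, at 48.8, 49.7 and 50.3 FPM, against 10.4, 16.2 and 12.9 FPM in siC (1.86, SE 0.24, limma adjusted p = 0.000389). The collagen chaperone SERPINH1 rose from 260.2 ± 45.4 to 773 ± 44.7 FPM (1.58), LOXL2 from 65.7 ± 13.2 to 176 ± 4.54 FPM (1.42), the N-propeptidase ADAMTS2 from 42.8 ± 5.46 to 89.1 ± 9.43 FPM (1.04; SD, n = 3). COLGALT1, which attaches galactose to collagen hydroxylysine, was the seventh. The founding lysyl oxidase LOX (-0.08) and the prolyl 4-hydroxylases P4HA1 (0.04) and P4HA2 (-0.01) did not pass.

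Among 26 measured matrix glycoproteins and proteoglycans, 5 were stably up and 1 stably down. SPARC, a collagen-binding matricellular protein, had the largest rise in FPM of all stable genes, from 527, 749.9 and 602 FPM in siC to 2325, 2293 and 2307 FPM in siI1 (1.90, SE 0.21, limma adjusted p = 6.99e-05). EFEMP1, a fibulin of elastic fibres, went from 4.99, 3.02 and 4.06 to 24.1, 37.1 and 31.6 FPM (2.67, SE 0.30, limma adjusted p = 7.76e-05), and the microfibril protein FBN1 from 22.1 ± 4.12 to 64.6 ± 10.6 FPM (1.51; SD, n = 3). THBS1, an adhesive glycoprotein that inhibits vessel growth, was at 145, 141 and 141 FPM in siC and 352, 309 and 351 FPM in siI1 (1.24, SE 0.16, limma adjusted p = 0.0004). The proteoglycan BGN rose from a low level, 2.50 ± 0.673 to 11.3 ± 4.24 FPM (1.77; SD, n = 3). Fibronectin, the ligand of several integrins, went the other way. FN1 was at 139, 129 and 133 FPM in siC and 55.6, 50.7 and 49.1 FPM in siI1, with no overlap (-1.35, SE 0.18, limma adjusted p = 0.000435). The median of the list was 0.45, and 0.23 after the correction.

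**Figure D3:**
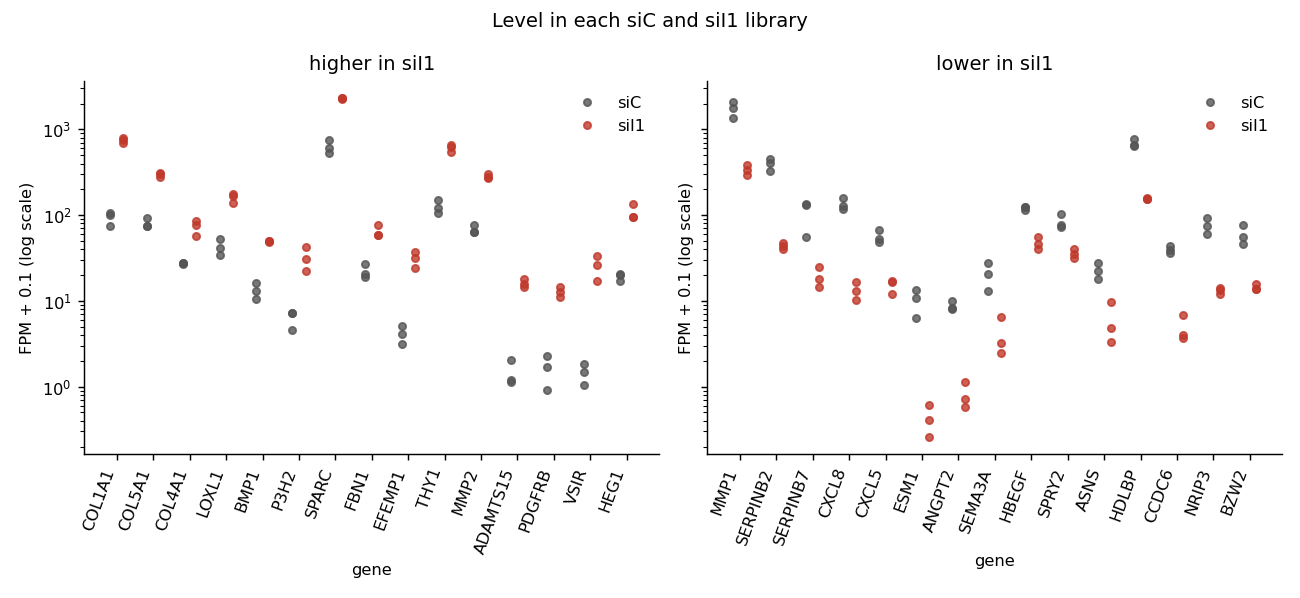
Level in each siC (grey) and siI1 (red) library of 15 genes higher and 15 genes lower in siI1, on a logarithmic axis of FPM with a small constant added; each point is 1 library. In all 30 genes the 3 siC and 3 siI1 points did not overlap, as with COL1A1 at 74.6 to 105 FPM in siC and 692 to 798 FPM in siI1. The genes were chosen among stable calls, and for the largest changes the choice itself required this. Of all tested genes, 32.8% did not overlap.

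Matrix proteases changed in both directions. Of 25 measured matrix metalloproteases, adamalysins and their inhibitors, 4 were stably up and 2 stably down, and the median was 0.26 before and 0.17 after the correction. The gelatinase MMP2, which digests basement membrane collagen, rose from 64.1, 76.0 and 63.2 FPM in siC to 279.7, 274 and 300.2 FPM in siI1 (2.06, SE 0.18, limma adjusted p = 6.2e-06). The collagenase MMP1, which cuts fibrillar collagen, fell from 2086, 1794 and 1364 FPM to 333, 388 and 291 FPM, the largest fall in FPM of all stable genes (-2.36, SE 0.40, limma adjusted p = 0.00234). Neither pair of groups overlapped. ADAMTS15, which cleaves proteoglycans, was at 1.04, 1.94 and 1.08 FPM in siC and 14.3, 15.5 and 18.1 FPM in siI1 (2.86, SE 0.31, limma adjusted p = 6.03e-05). The membrane-bound ADAM19 rose from 32.8 ± 1.72 to 120.3 ± 2.89 FPM (1.84) and ADAM12 from 64.7 ± 3.14 to 157 ± 3.40 FPM (1.27), while ADAMTS6 fell from 38.6 ± 12.4 to 11.4 ± 3.97 FPM (-1.67; SD, n = 3). MMP14, the membrane activator of MMP2, was not called as deposited (-0.35, limma adjusted p = 0.29) but was lower after the correction (-0.69, limma adjusted p = 0.0059). The inhibitor TIMP2 did not pass either (0.71, limma adjusted p = 0.0689).

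Plasminogen activators turn plasminogen into plasmin, and serpins such as SERPINB2 block them. Of 11 measured genes of this system, 2 were stably down, and the median was -0.24. SERPINB2 (PAI-2) was at 451, 328 and 405 FPM in siC and at 40.4, 43.5 and 47.0 FPM in siI1 (-3.14, SE 0.18, limma adjusted p = 1.05e-07). The groups did not overlap. SERPINB7, a clade B serpin, fell from 133, 56.2 and 131 to 14.6, 24.5 and 17.8 FPM (-2.36, SE 0.40, limma adjusted p = 0.00223). The tissue activator PLAT was called at -0.90, but not after the correction (limma adjusted p = 0.083). The urokinase PLAU did not pass (-0.24, limma adjusted p = 0.46).

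Receptors that hold cells to the matrix, and their laminin ligands, changed in both directions. Of 23 integrin and laminin subunits, 5 were called up and 2 down (30.4%, beside 8.18% of all genes), and 1 was stably up and 1 stably down, with a median of 0.01. Dropping siC replicate 1 left 3 calls. ITGB5, which pairs with the alpha v subunit to bind vitronectin, rose from 109, 119 and 95.4 to 305, 237 and 313 FPM (1.39, SE 0.19, limma adjusted p = 0.000478). ITGA6, a laminin receptor subunit, fell from 111, 68.9 and 112 to 31.4, 40.0 and 36.1 FPM (-1.39, SE 0.23, limma adjusted p = 0.00186). THY1, a GPI-anchored surface protein of fibroblasts, stood at 106, 151 and 122 FPM in siC and at 626, 545 and 661 FPM in siI1 (2.27, SE 0.21, limma adjusted p = 1.19e-05).

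Among 30 axon guidance genes, 2 were stably up and 1 stably down. The secreted ligand SLIT3 varied little within siI1, at 99.4, 96.6 and 98.6 FPM, against 11.5, 15.5 and 13.4 FPM in siC (2.79, SE 0.19, limma adjusted p = 6.05e-07). PLXND1, a semaphorin receptor, rose from 52.6 ± 12.7 to 118 ± 17.7 FPM (1.17; SD, n = 3). The repellent ligand SEMA3A fell from 20.5 ± 7.33 to 3.97 ± 2.14 FPM (SD, n = 3; -2.14, SE 0.37, limma adjusted p = 0.0029). Among 21 receptor tyrosine kinases 2 were stably up and 0 down. PDGFRB, the platelet-derived growth factor receptor of pericytes and fibroblasts, was at 0.812, 1.62 and 2.17 FPM in siC and 14.3, 12.6 and 10.9 FPM in siI1 (2.46, SE 0.31, limma adjusted p = 0.000301). The orphan receptor ROR1 rose from 3.03 ± 0.521 to 12.9 ± 1.75 FPM (1.79; SD, n = 3). The receptors AXL (1.03), FGFR1 (0.71), KIT (1.11) and MET (-1.02) were called, but lost the call when siC replicate 1 or siC replicate 3 was dropped.

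Angiogenic genes went both ways. Of 24 measured, 1 was stably up and 2 were stably down, with a median of -0.01 and of -0.19 after the correction. ESM1, a proteoglycan of activated endothelium, was at 13.3, 6.15 and 10.8 FPM in siC and at 0.311, 0.160 and 0.513 FPM in siI1, which is 1 to 3 reads per library (limma adjusted p = 1.19e-05). From 252 reads in siC and 6 in siI1, the siI1 level was 0.0325 of the siC level, with an exact 95% interval of 0.0118 to 0.0717 that covers counting error only. ANGPT2, a ligand that antagonizes TIE2, was at 9.86, 8.09 and 7.99 FPM in siC and 0.621, 0.480 and 1.03 FPM in siI1, a ratio of 0.0809 (exact 95% interval 0.0424 to 0.141). The growth factor PDGFB, a ligand of PDGFRB, rose from 9.47 ± 3.02 to 29.9 ± 3.43 FPM (1.59; SD, n = 3). Of the endothelial surface proteins, CDH5 rose from 60.5 to 140.4 FPM on average (1.21, limma adjusted p = 0.000638), and TIE1 did not pass (163 and 167 FPM, 0.04). In bulk RNA, fewer cells of a kind and less RNA per cell cannot be told apart.

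The inflammatory mediators that passed the test fell. Of 24 measured chemokines, cytokines and NF-kB feedback genes, 0 were called up and 4 down (16.7%, beside 8.18% of all genes), 2 of them stably. The median was -0.15, or -0.38 after the correction and 0.26 with spike-in totals. CXCL8, the neutrophil chemokine interleukin 8, was at 127, 117 and 159.6 FPM in siC and at 12.9, 16.5 and 10.1 FPM in siI1 (-3.27, SE 0.52, limma adjusted p = 0.00135). CXCL5, another ligand of CXCR2, fell from 67.7, 48.5 and 52.2 to 16.3, 11.8 and 16.9 FPM (-1.84, SE 0.25, limma adjusted p = 0.000496). CXCL3 (-1.12) and IL24 (-1.50) were called as well, CXCL3 in only 1 of the 6 fits that left out a library and IL24 in 5. CXCL1, of the same family, did not pass (-0.13, limma adjusted p = 0.71).

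The 2 genes with the largest stable falls on the log2(FPM + 1) scale, CXCL8 and SERPINB2, carry in their core promoters a match to the AP-1 motif TGANTCA, which reads the same on both strands and was searched from 250 bases before to 50 bases after the start. As ratios of FPM, ESM1 and ANGPT2 fell further, and ESM1 had 0 matches. The windows of the first pair are shown for their matches, from RefSeq on GRCh38.p14, each from position -160 to -61, with the match in capitals. The CXCL8 window is at chr4:73740409-73740508 on the plus strand with the match at -137 to -131, and the SERPINB2 window at chr18:63887545-63887644 on the plus strand with the match at -102 to -96.
CXCL8: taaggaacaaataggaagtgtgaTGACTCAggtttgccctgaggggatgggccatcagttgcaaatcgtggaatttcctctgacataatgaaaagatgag
SERPINB2: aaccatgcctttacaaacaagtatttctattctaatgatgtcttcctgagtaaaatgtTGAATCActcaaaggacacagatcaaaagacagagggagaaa
The motif was in 7.76% of 27305 promoters and in 4.56% of the 9415 promoters of tested genes. It was in 6 of the 62 promoters found for stable falls (9.68%) and in 3 of the 93 found for stable rises (3.23%), a description without a test. Over all called falls it was in 6.21%. It was 1 of 7 motifs searched, and the TATA box TATAAA was in 9.68% of the promoters of stable falls as well, beside 5.31% of those of tested genes. Of the 23 measured immediate early genes, the class that holds the AP-1 subunits, 0 were called in either direction and 0 in any fit that left out a library, while 3 were lower after the correction. The JUN mRNA averaged 184.9 FPM in siC and 196.4 FPM in siI1 (0.09, limma adjusted p = 0.809).

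Some interferon-stimulated genes rose. Of 26 measured, 2 were stably up and 0 stably down, with 5 called up and 1 down and a median of 0.24, or 0.35 after the correction. Dropping siC replicate 1 left 2 calls, and dropping siC replicate 2 gave 9. IFITM1, which blocks virus entry at the membrane, rose from a mean of 1.09 to one of 7.54 FPM (2.02, SE 0.28, limma adjusted p = 0.000491). IFITM3 rose from 36.9, 64.2 and 48.9 to 114, 105 and 106 FPM (1.14), and since it is nearly identical to IFITM2 over much of its length, the split of reads between them is uncertain. In MHC class I presentation 1 of 19 genes was called (5.26%, beside 8.18% of all genes), the immunoproteasome subunit PSMB9 (1.31). Its call was lost after leaving out siC replicate 1, siC replicate 3 or siI1 replicate 1. VSIR, an immune checkpoint ligand, had the largest stable log2 rise of all, from 1.36 ± 0.397 to 25.6 ± 8.32 FPM (SD, n = 3; 3.46, SE 0.39, limma adjusted p = 8.19e-05).

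The ERK feedback genes and EGF-type ligands that passed the test fell. Of 24 measured, 0 were called up and 4 down (16.7%, beside 8.18% of all genes), 3 of them stably. The median was -0.35, or -0.24 after the correction and 0.21 with spike-in totals. HBEGF, a ligand of the EGF receptor, was at 114, 125 and 125 FPM in siC and 46.4, 56.0 and 40.0 FPM in siI1 (-1.35, SE 0.20, limma adjusted p = 0.000915). SPRY2, which restrains receptor kinase signalling, fell from 77.2, 102 and 73.2 to 35.6, 40.0 and 31.5 FPM (-1.21, SE 0.19, limma adjusted p = 0.00117), and DUSP5, a nuclear ERK phosphatase, from 151, 185 and 162 to 84.8, 84.1 and 81.4 FPM (-0.98, SE 0.18, limma adjusted p = 0.00449). The receptor EGFR itself did not pass (87.3 and 91.5 FPM, 0.07).

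Targets of TGF-beta, YAP and SRF rose in single members. SMAD6, the inhibitory SMAD of the BMP branch, rose from 1.86, 3.45 and 2.03 to 11.2, 11.2 and 16.6 FPM (2.03, SE 0.30, limma adjusted p = 0.000795). It was among the 2 stably up of 31 TGF-beta genes, whose median was -0.01. Among 26 YAP and TEAD targets the LIM protein AJUBA (1.27) and the guanine nucleotide exchange factor ARHGEF17 (14.3 and 33.8 FPM on average) were stably up, and the median was 0.17. Among 25 SRF and MRTF targets the actin-binding calponin CNN2 rose from 141 ± 40.9 to 381 ± 28.7 FPM (1.46; SD, n = 3), while SRF itself was called at -1.02 but not without siC replicate 3. The simple keratin KRT8 rose from 42.7, 52.7 and 36.5 to 162, 131 and 149 FPM (1.73, SE 0.21, limma adjusted p = 0.000173). It was the stable member among 11 keratins and epithelial genes, whose median was the highest of the lists as deposited, 0.58, but 0.39 after the correction, below both collagen lists. KRT8 has many processed pseudogenes, so part of its reads may be split.

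Messenger RNAs reported as bound by IGF2BP1 changed in both directions. Of 23 measured, 2 were called up and 2 down (17.4%, beside 8.18% of all genes), 1 was stably up and 0 stably down, and the median was 0.03. ACTB, whose localization element gave the protein its first name, was at 1925, 2545 and 2013 FPM in siC and 2192, 2019 and 1879 FPM in siI1, with overlap (-0.08, limma adjusted p = 0.847). MYC, whose coding region the protein protects, was at 251, 372 and 257 FPM in siC and 361, 302 and 312 FPM in siI1, also overlapping (0.17, limma adjusted p = 0.644). CD44, the hyaluronan receptor, was at 245, 230.1 and 316 FPM in siC and 139, 242 and 118 FPM in siI1 (-0.72, limma adjusted p = 0.145). The drug efflux pump ABCB1 had 68 reads in siC and 15 in siI1, did not overlap and did not pass (-1.02, limma adjusted p = 0.0685). The other uncalled members shown, CTNNB1 (-0.19), BTRC (-0.50), CCND1 (0.15), MKI67 (-0.35), E2F1 (0.15), FOXK1 (0.03), PDLIM7 (0.10), LEF1 (0.03), BIRC5 (0.13), PABPC1 (0.12) and DYRK1A (0.01), lay nearer 0.

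The stable member was PEG10, a retrotransposon-derived gene, at 34.8, 28.9 and 37.9 FPM in siC and 78.1, 89.2 and 77.3 FPM in siI1 (1.25, SE 0.20, limma adjusted p = 0.00135). SNAI2, a repressor of E-cadherin, rose from 4.99, 5.07 and 8.12 to 14.8, 14.6 and 12.5 FPM (1.11, limma adjusted p = 0.0204), but the adjusted p reached 0.111 in the fits that left out a library. SRF fell from 57.9, 91.2 and 73.5 to 40.2, 29.6 and 37.4 FPM (-1.02, limma adjusted p = 0.0111), and its adjusted p without siC replicate 3 was 0.0535. SIRT1, a deacetylase, was called at -1.15 and was not called after the correction (limma adjusted p = 0.214). IGF2, H19, MAPK4, GLI1, LIN28B and UCA1 did not pass the filter and had at most 9 reads in any of the 6 libraries.

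The let-7 family represses HMGA2, LIN28B and other oncofetal mRNAs, and IGF2BP1 mRNA is itself a let-7 target. Of 29 measured let-7 targets and oncofetal mRNAs, 1 was stably up (THBS1) and 1 stably down (IGF2BP1, the siRNA target). ARID3A was also called (-0.97). The median was -0.07 and turned to 0.06 after the correction. HMGA2 was at 28.2, 23.6 and 35.7 FPM in siC and 26.1, 24.1 and 38.1 FPM in siI1, the groups overlapping fully (0.00, SE 0.31, limma adjusted p = 0.995).

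To see how transcripts with miRNA sites behaved as a class, 7-base matches to bases 2 to 8 of 28 mature miRNAs (27 distinct seeds) were counted in the longest 3' UTR of 11366 tested coding genes. The mature sequences of the 2 miRNAs with the lowest differences, the 1 with the highest and let-7a, from RefSeq, are printed with the seed in capitals.
hsa-let-7a-5p: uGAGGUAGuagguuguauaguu
hsa-miR-26a-5p: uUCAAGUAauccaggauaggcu
hsa-miR-21-5p: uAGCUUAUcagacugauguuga
hsa-miR-24-3p: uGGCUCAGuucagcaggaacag
The 9895 genes without a let-7 match had a median log2 fold change of -0.06, the 1279 with 1 match -0.11 and the 192 with 2 or more -0.15. After the correction these medians were -0.01, -0.01 and -0.03. For miR-26a the difference between genes with and without a match was -0.30 before and -0.01 after, and for miR-21 -0.27 and 0.00. For miR-24, whose seed match holds 5 G or C bases, it was 0.18 before and 0.02 after. The difference followed the bases of the seed. All 16 seeds with 3 or fewer G or C had a difference below 0, from -0.30 to -0.09. The 11 with 4 or more lay between -0.07 and 0.18, and 3 of them, let-7 included, were below 0. After the correction all 27 lay between -0.06 and 0.06. In siI1 against siI2 and siI3, whose log2 difference uses no control library, they lay between -0.04 and 0.04.

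**Figure D4:**
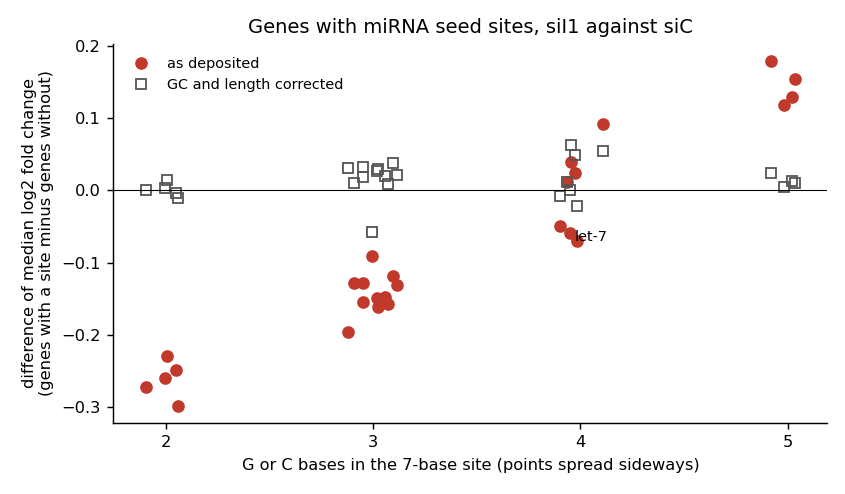
Difference in median log2 fold change, siI1 against siC, between genes with and without a 7-base 3' UTR match, for 27 miRNA seeds by the number of G or C bases in the match; circles as deposited, squares after correction for GC content and length. Uncorrected differences ran from -0.30 for seeds with 2 G or C to 0.18 for seeds with 5, and corrected ones from -0.06 to 0.06.

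Genes of RNA metabolism had medians below that of all genes, nearer 0 after the correction. The 52 partner and other RNA-binding proteins had a median of -0.45, or -0.13 after the correction and 0.13 with spike-in totals. Of them 9 were called down (17.3%, beside 8.18% of all genes) and 0 were stable. The calls included the hnRNP genes HNRNPC (-0.99) and HNRNPU (-0.93), and 0 of the list were called without siC replicate 1. The 17 m6A writers, erasers and readers had medians of -0.62 and -0.21 with 0 stable, and the 39 genes of miRNA machinery and deadenylation -0.20 and 0.04 with 0 stable. The mRNA of the slicing Argonaute, AGO2, averaged 42.6 and 43.2 FPM and did not pass (0.02). Cytosolic ribosomal proteins had a median of 0.04, with 1 of 77 called.

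Among growth genes 0 were stable. Of 51 G2 and mitosis genes 4 were called down (7.84%, beside 8.18% of all genes). The list median was -0.67, or -0.34 after the correction. Without siC replicate 1, 0 of them were called, and without siC replicate 2, 22 were. The proliferation marker MKI67 was at 138, 134 and 180.2 FPM in siC and 108, 133 and 111 FPM in siI1, without overlap, and did not pass (-0.35, limma adjusted p = 0.439). Of 48 G1/S and replication genes 1 was called up and 2 down (median 0.07). CDKN1A, an inhibitor of cyclin-dependent kinases, fell from 9.57 ± 3.77 to 2.36 ± 0.417 FPM (SD, n = 3; -1.59, limma adjusted p = 0.00717), a call lost without siC replicate 3. Of 13 EMT factors and cadherins 1 was called up and 1 down (median -0.07), and of 10 genes of the insulin-like growth factor system 2 were called up (median 0.13), both with 0 stable.

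Stress and metabolism lists held single stable genes, to be read beside the 1.61% of all genes that were stable. Of 41 unfolded protein response and integrated stress response genes, 8 were called down and 2 up (median -0.41, or -0.26 after the correction and 0.16 with spike-in totals), and 1 call in all was left without siC replicate 1. ASNS, asparagine synthetase and a target of ATF4, was the stable one, at 27.4, 22.4 and 17.7 FPM in siC and 3.26, 9.59 and 4.79 FPM in siI1 (-1.86, SE 0.35, limma adjusted p = 0.00452). The 22 aminoacyl-tRNA synthetases had a median of -0.60 and -0.44 after the correction, with 5 called down and 0 stable. Of 32 cholesterol and fatty acid genes 7 were called up and 1, the fatty acid desaturase FADS2 (1.14), was stable. Without siC replicate 1 only 1 of these calls was left. Of 32 glycolysis and hypoxia genes 2 were stably up: the lactate exporter SLC16A3, from 4.52, 4.96 and 3.52 to 24.2, 17.0 and 23.9 FPM (2.08, SE 0.25, limma adjusted p = 0.000167), and the mitophagy receptor BNIP3 (0.99). In the retinoid list RARRES3, a retinoid-induced phospholipase, rose from 1.37 ± 1.23 to 11.5 ± 1.96 FPM (SD, n = 3; 2.54, SE 0.40, limma adjusted p = 0.00119). Of 27 long noncoding RNAs 2 were stably down, MIR100HG (-1.49) and LINC-PINT (ENSG00000226380, -1.39). The symbol LINC-PINT is shared with another tested entry, whose value is not given here.

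**Figure D5:**
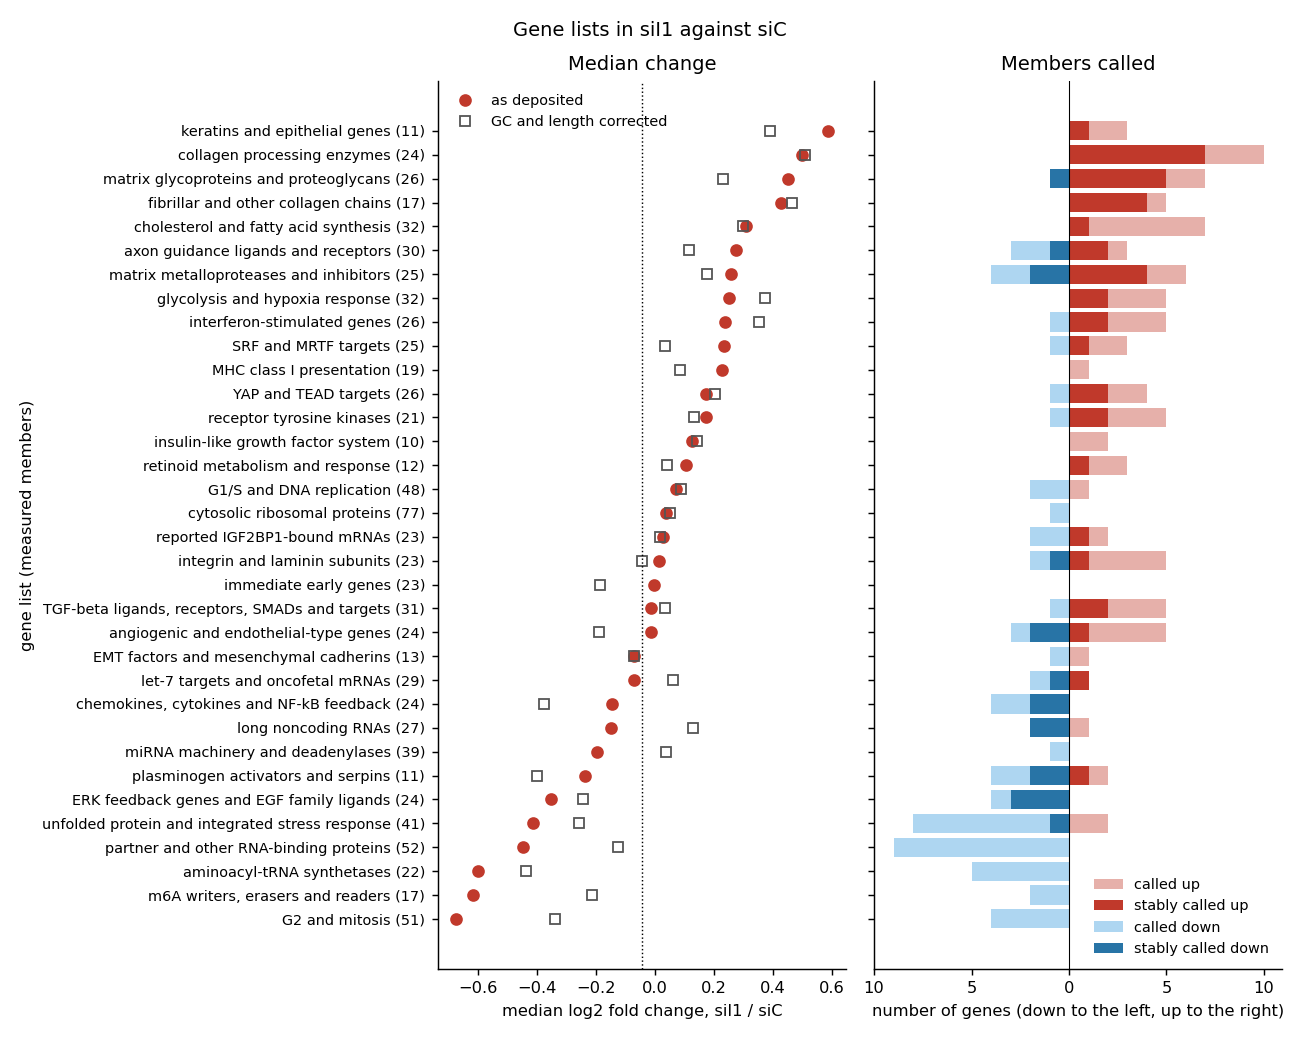
Left, median log2 fold change of siI1 against siC for gene lists with the number of measured members, as deposited (circles) and after correction for GC content and length (squares); the dotted line is the median of all genes, -0.05. Right, number of members called up (right of 0) and down (left of 0), the stable ones in dark colour; collagen processing enzymes had 10 called up and 7 stable, partner RNA-binding proteins 9 called down and 0 stable.

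Outside the lists, stable falls included 2 genes of known function that stood out by size. HDLBP, which encodes vigilin, an RNA-binding protein with many KH domains, was at 651, 778 and 645 FPM in siC and 153, 159 and 156 FPM in siI1 (-2.14, SE 0.18, limma adjusted p = 6.2e-06). CCDC6, a coiled-coil protein known from fusions with RET, was at 39.0, 36.5 and 43.7 FPM in siC and 3.88, 6.72 and 3.59 FPM in siI1 (-2.87, SE 0.22, limma adjusted p = 1.69e-06). In siI2 and siI3 HDLBP was at 700.2 ± 116 and 583 ± 37.1 FPM, and CCDC6 at 29.3 ± 2.01 and 42.1 ± 1.89 FPM (SD, n = 3). Others were NRIP3 (-2.43), the translation factor mimic BZW2 (-1.93), the endosome protein RABEP1 (-1.93), the pseudouridine synthase TRUB1 (-1.90), ornithine decarboxylase ODC1 (209 to 90.2 FPM), the scaffold AKAP12 (-1.26), the Wnt antagonist SFRP1 (-0.93), the noncoding LINC00707 (-1.89), ARMC4 (-2.00) and GLIPR1 (-1.90). KRTAP2-3 (-1.87) has a near-identical neighbour gene, so its reads may be shared.

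Further stable rises were the transcription factor ARNT2, from 3.48, 5.72 and 6.77 to 31.7, 34.2 and 33.5 FPM (2.47, SE 0.24, limma adjusted p = 2.3e-05), and HEG1, a mucin-like surface protein, from 17.2, 20.1 and 20.7 to 94.1, 134 and 94.2 FPM (2.40, SE 0.21, limma adjusted p = 6.59e-06). The heparan sulfate sulfotransferase NDST1 rose from 278 ± 31.3 to 772 ± 40.2 FPM (1.47) and the secreted DKK3 from 178 ± 14.1 to 403 ± 24.1 FPM (1.18; SD, n = 3). Carboxypeptidase CPA5 (2.42), the neuropeptide receptor VIPR1 (2.40), GSG1 (2.33), the arginine deiminase PADI1 (2.27), the transcription factor ATOH8 (2.22), the lipid flippase ATP8B1 (2.22) and the noncoding AL590004.3 (2.51) and AC026250.1 (2.27) also rose. ANXA8 (2.11) shares nearly all of its sequence with ANXA8L1, so its level is uncertain.

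The siI1 libraries were also set against the mean of siI2 and siI3, which uses no control library and shares the siI1 libraries with the comparison above. By limma 760 genes passed (5.51%), 499 up (3.62%) and 261 down (1.89%). After the correction 1239 passed (9.13%), 5.21% up and 3.92% down. In siI1 against siI2 and siI3, dropping siI1 replicate 1 left 361 calls, dropping replicate 2 left 382 and dropping replicate 3 left 365. The values of the leading genes stand side by side as siI1 against siC and siI1 against the other knockdowns. They were 3.00 and 1.79 for COL1A1, 1.90 and 1.38 for SPARC, 2.06 and 2.57 for MMP2, and 2.79 and 2.21 for SLIT3. They were -3.14 and -2.60 for SERPINB2, -2.14 and -2.02 for HDLBP, and -2.87 and -2.70 for CCDC6. All of these passed in both. The mean of siI2 and siI3 can join unlike levels. In siC, siI2 and siI3, COL1A1 averaged 93.5, 358 and 139 FPM and SLIT3 13.5, 32.4 and 12.9 FPM. P3H2 averaged 6.22, 27.0 and 7.99 FPM in the same order, beside 31.7 FPM in siI1. RARRES3 was lower in both other knockdowns than in siC, at 1.37, 0.132 and 0.544 FPM. The siI2 and siI3 groups were not tested against siC here. CXCL8 (-1.46, limma adjusted p = 0.0706), SERPINB7 (-1.03, 0.1), SEMA3A (-0.70, 0.261), ADAMTS2 (0.32, 0.315) and LOXL2 (0.45, 0.167) did not pass against the other knockdowns. CXCL8 was at 36.5 ± 19.2 FPM in siI2 and 61.2 ± 65.0 FPM in siI3, the siI3 libraries ranging from 23.6 to 136 FPM (SD, n = 3).

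In this second comparison, of 26 interferon genes measured, 8 were called up and 1 down, with a median of 0.73. In MHC class I presentation 6 of 19 were called up and 0 down (median 0.63), and in glycolysis and hypoxia 6 of 32 up and 0 down (median 0.50). Collagen processing enzymes had 5 of 24 called up (median 0.32) and collagen chains 4 of 17 (median 0.10). IGF2BP2 passed here (1.25, limma adjusted p = 0.000622), being the target of one of the reference groups. ACTL6A (-0.33), CCDC50 (-0.25) and DCBLD2 (-0.23) were the stable falls (1.35% of the stable genes) with an adjusted p over 0.5 against the other knockdowns. DCBLD2, a neuropilin-like receptor, was at 368 ± 81.4 FPM in siC, 152 ± 23.8 FPM in siI1, 169.7 ± 32.6 FPM in siI2 and 187 ± 17.4 FPM in siI3 (SD, n = 3).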

How the data were processed

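Total RNA depleted of ribosomal RNA was reverse transcribed with random hexamers and sequenced in pairs, per the labels' protocols. Per the submitters' processing notes, the authors used cutadapt 1.6, TopHat2 2.0.13 with hg19, featureCounts 1.4.6 and edgeR 3.12. No source used here gives the strand setting or the annotation release, so overlapping and antisense genes may share reads. The deposited table gives FPM, a depth-normalized signal, per the file headers, for 57865 features. The 92 ERCC spike-in RNAs among them were left out. It also holds the authors' log2 fold change and FDR, an adjusted p-value, in which 448 of the genes tested here had an FDR under 0.05. All FPM values were whole multiples of 1 read within a tolerance of 0.01 (100% of values), so reads were recovered. The 37 mitochondrial genes are listed at 0. Gene names, GC content and 3' UTRs came from GENCODE. Identifiers matched 52338 features and symbols a further 1885.

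Genes passing filterByExpr (minimum count 10) were tested on log2(FPM + 1) with limma 3.58.1 and its trended prior. That scale understates changes of low genes. All 12 libraries entered with 1 coefficient per group. P-values were adjusted by Benjamini-Hochberg over all genes, with calls below 0.05. The correction fitted 1 loess surface (span 0.5) per library over GC content and length (13570 genes, 98.5%). edgeR 4.0.16, run on the recovered reads, called 1388 genes, of which 1094 were limma calls. DESeq2 1.42.0 was an alternative, all in R 4.3.3. In tests on simulated data (siI1 against siC, 3 sets, 13782 genes, 200 changed) 2.49%, 20.4% and 70.7% of changes of 1.5, 2 and 4-fold were recovered, with 7 false calls among 69 on average. The simulated libraries were given no GC slope, so the false calls do not measure those that such a slope could bring.

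The samples, the 35 gene lists and the naming rule were chosen with earlier results of these data known. Named genes were the IGF2BPs. Added were the 20 largest stable changes per direction in coding or long noncoding genes whose higher group averaged 5 FPM or more, without overlap, the 8 largest in FPM, up to 6 stable members per list and every measured bound mRNA. Called let-7 list members, the 10 per direction with the largest stable difference from the other knockdowns, and stable genes with an adjusted p over 0.5 there completed the rule. Further list members, called or not, were named after their values were seen. Some genes and 1 list that the rule covers are not reported here. The alternatives were other pseudocounts, filters, tools, scalings, a block, coding genes only, a minimum fold and left-out libraries. Those with siC replicate 2 alone after correction, spike-in totals and coding totals were chosen after seeing the data.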

Additional observations from a re-analysis of the deposited data

Results flagged for a closer look

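The 20 genes given here, 10 per direction, are those with the largest difference among the stable genes whose change in siI1 against siC differed from the mean change in the siI2 and siI3 knockdowns by a test of that difference (limma, adjusted p under 0.05, n = 3 per group). Other stable genes passed too, such as SLIT3 with 2.21 and COL1A1 with 1.79. The control libraries cancel in the difference. In siI1, 10 were higher: RARRES3 by 3.27 on the log2 scale, ADAMTS15 by 3.00, TUFT1 by 2.85, ANXA8 by 2.80, VSIR by 2.78, EFEMP1 by 2.66, MMP2 by 2.57, ABCC3 by 2.52, GSG1 by 2.52 and GYPC by 2.47. TUFT1 was at 71.7, 79.8 and 77.1 FPM in siI1, 16.8 ± 0.251 FPM in siI2 and 5.81 ± 2.55 FPM in siI3 (SD, n = 3). The drug transporter ABCC3 was at 38.8 ± 5.21, 5.47 ± 0.132 and 7.20 ± 4.97 FPM, and the red cell membrane glycoprotein GYPC at 129 ± 5.97, 49.3 ± 5.15 and 9.88 ± 1.09 FPM in the same order (SD, n = 3).

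The other 10 were lower: ESM1 with a difference of -4.33, CCDC6 with -2.70, SERPINB2 with -2.60, ANGPT2 with -2.20, HDLBP with -2.02, IGF2BP1 with -1.98, ARMC4 with -1.96, CXCL5 with -1.87, TAGLN3 with -1.83 and KRTAP2-3 with -1.79. ESM1 was at 16.9 ± 3.45 FPM in siI2 and 38.8 ± 5.31 FPM in siI3 (SD, n = 3), against 1 to 3 reads per library in siI1. Groups of 3 libraries were not examined for single outlying values.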

How the results depend on the processing

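IGF2BP1 stayed called and lower under every alternative run, from -1.32 with spike-in totals to -2.06 with siC replicate 2 as the only control. For siI1 against siC, 1128 genes as reported became 481 without a filter on low values, 338 with a minimum fold of 1.2, 2039 with only the 6 siC and siI1 libraries, 2014 in DESeq2, 268 to 2602 with 1 library left out, 40 with siC replicate 2 as the only control and 95 with that control after the correction. With spike-in totals 402 were called, 381 of them up, since this scaling moved the median of all genes to 0.43. No source used here says how much spike-in each library received. For siI1 against siI2 and siI3, 760 genes became 1239 after the correction, 454 without a filter, 317 with the minimum fold and 361 to 936 with 1 library left out. Same-numbered siC and siI1 libraries did not deviate alike from their group means (correlations of -0.26, -0.34 and -0.09). Those with unlike numbers ran from -0.23 to 0.36. The deviations were taken before the correction and carry the GC slopes, so they cannot decide whether replicate numbers mark a shared batch. With the replicate block 696 genes were called, and 690 with the block and the correction.

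By definition, stable genes keep call and direction after the correction and in the fits with 1 siC or siI1 library left out. The 91 other stable named genes kept their direction wherever they were tested. A minimum mean of 5 FPM left 78 of them tested, and coding genes alone 86. With spike-in totals 22 lost the call, with siC replicate 2 alone 64, and with that control after the correction 46; with the block and the correction 1 did. With genes in 4 equal bins by mean FPM, 11 rises and 1 fall were stable in the lowest bin and 61 and 42 in the highest, and the self-test recovered few changes of 2-fold or less.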
